A study of Mus musculus with 2 samples.

Results

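The fatty acid binding protein genes Fabp1 to Fabp7 and the fatty acid receptor gene Cd36 were followed in late fetal mouse ureters with and without functional Pparg. Members were all non-control array spots whose gene name in the design was Fabp1, Fabp2, Fabp3, Fabp4, Fabp5, Fabp6, Fabp7 or Cd36. This gave 8 genes with 9 probes, among 29923 genes with 39428 probes on the array. All ureters came from NMRI embryos at E18.5. In the Pparg-cKO pools the genotype was Pax2-cre/+; Pparg(fl/fl), so that floxed exons are deleted where the Pax2-cre transgene is active, which is the nephric duct, the ureteric epithelium and the collecting duct of the kidney. In the control pools the genotype was Pparg(fl/?), with the second allele not stated in the labels, and per the methods control embryos were littermates without cre. RNA was taken from whole ureters, pooled over embryos of the same sex. The array of replicate 1 compared a female Pparg-cKO pool with a female control pool and that of replicate 2 a male Pparg-cKO pool with a male control pool. The dyes were swapped between the arrays, which shared a slide, so that sex, dye orientation and array cannot be told apart.

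Fatty acid binding proteins are small cytosolic proteins that hold long-chain fatty acids and other hydrophobic ligands inside a barrel of beta strands and carry them between membranes, lipid droplets, mitochondria and the nucleus. CD36 sits in the plasma membrane and takes up long-chain fatty acids from outside the cell. PPARG is a nuclear receptor that binds fatty acids and their derivatives, and Fabp4 and Cd36 are textbook PPARG target genes of adipocytes and macrophages. In the urinary tract PPARG is known as a regulator of urothelial differentiation.

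The probes behind the values are shown first, because each gene except Fabp3 was read through a single one. Each probe is 60 bases long, and 30 bases of it are given in the sense of the transcript, 5′ to 3′. In the Fabp3 stretch, which lies in both Fabp3 probes, the capitals mark AATAAA, the letters of the usual polyadenylation signal, which none of the other members' probes held. Positions are those of the array design on build mm9.
Fabp3: tgctccaaggtcAATAAAgcagaaccaagg
Fabp5: gtcaaatgcaacaaacagcttcacttcttt
Fabp4: aagaggcctggatggaaatttgcatcaaac
Fabp6: aaggtggtggcagagttccccaactatcac
Cd36: aagaatgaaaaatgaacaattcacatgtga
The Fabp3 probes lie on the plus strand at chr4:129992643-129992702 and chr4:129992652-129992711 and share a run of 51 bases, so they are not independent readings. The Fabp5 probe lies at chr3:10016185-10016244 on the plus strand and the Fabp4 probe at chr3:10204452-10204511 on the minus strand. In the RefSeq order of genes on that chromosome (assembly GRCm38.p6), Fabp5, Pmp2, Fabp9, Fabp4 and Fabp12 follow each other. The probes of the remaining members lie at chr6:71154906-71154965 (Fabp1, plus strand), chr3:122602276-122602335 (Fabp2, plus strand), chr11:43410973-43411032 (Fabp6, minus strand), chr10:57508039-57508098 (Fabp7, plus strand) and chr5:17288600-17288659 (Cd36, minus strand). All 9 probes carried a transcript accession that RefSeq assigns to the same symbol. Among the 35 pairs of probes of different members, the longest shared run was 10 bases, between Fabp7 and Fabp2.

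Of the 8 members, Fabp3 and Fabp5 were lower in the Pparg-cKO pool by more than 1.5-fold on both arrays, with means of 1.84-fold and 1.61-fold. Fabp6 was 1.56-fold higher on the mean of both arrays, at a signal near the background. Fabp1, Fabp2, Fabp7 and Cd36 were lower by less with the processing used, and Fabp4, the adipocyte member, lay lower on the female array and slightly higher on the male array. Higher and lower are used here as in the value table deposited with the arrays, whose columns are titled Pparg-cKO against control and whose direction is also that of the changes the study shows in its text and on sections. That direction is likely but not settled. The dye labels place the control pool in the red channel on replicate 1 and the Pparg-cKO pool in the red channel on replicate 2, whereas the deposited values correlated with the log2 ratio of red over green at 0.97 on replicate 1 and -0.98 on replicate 2 (Pearson, across 17914 probes, which are not independent replicates). Should the dye labels hold instead, higher and lower trade places throughout, with sizes, counts and p-values untouched.

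A fold rule and a moderated test were applied to the whole array. The fold rule, after the study's own thresholds, asked for at least 1.5-fold in the same direction on each array and, in the brighter channel of each, a processed signal no lower than 100. It was met by 258 of 14015 genes with that signal (1.84%), of which 147 were lower (1.05%) and 111 higher. The second criterion was limma's moderated test of the mean log2 ratio of both arrays, which called 169 of 22499 genes (0.751%) at a Benjamini-Hochberg adjusted p of 0.05. All 8 members were above background in every pool and were tested, and 5 of them had the signal that the fold rule asks for. Of these 5, Fabp3 and Fabp5 met the fold rule, both lower. In limma none of the 8 members was called, while 5 had an unadjusted p under 0.05, against 1914 of all 22499 genes. Disregarding size, 6 of 8 members were lower on both arrays, against 26.2% of all genes tested, and the processed signals of the control and the Pparg-cKO pools did not overlap for 6 of 8 members, against 34.6% of all genes tested. The median log2 ratio of the 8 members was -0.24, and that of all genes tested was 0.0094, with the 5th and 95th percentiles at -0.28 and 0.33.

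**Figure D1:**
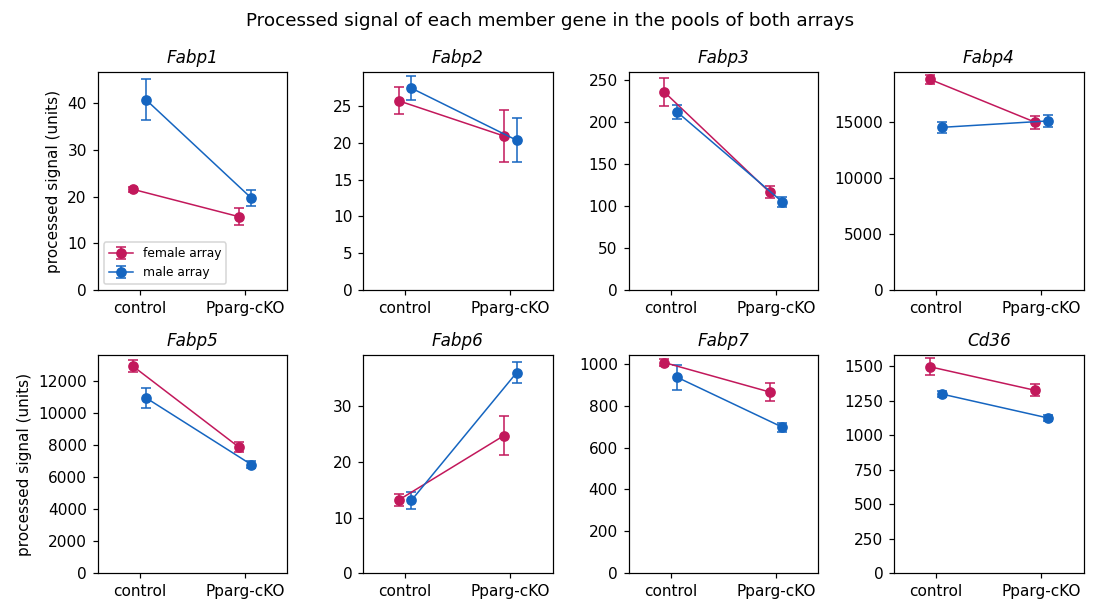
Processed signal (scanner units, linear axis from 0, one scale per gene) of the brightest probe of each member in the control and the Pparg-cKO pool of the female and the male array; bars are the SD over the spots of the probe. Fabp3 and Fabp5 are lower in both Pparg-cKO pools than in both control pools, Fabp6 is higher in both, and the lines of Fabp4 run in opposite directions.

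Fabp3, the heart and muscle member of the family, carries fatty acids in tissues that burn them. The probe with the higher signal read 235.3 ± 16.3 units in the female control pool and 116.4 ± 7.24 in the female Pparg-cKO pool (SD over 4 spots). In the male pools it read 211.8 ± 8.61 in the control and 104.9 ± 6.29 in the Pparg-cKO. Both control pools thus lay above both Pparg-cKO pools. The SD over spots is technical and does not measure the variation between pools. After background correction with an offset and loess normalisation, the female array gave a log2 ratio of -0.93 and the male array one of -0.83, a mean of -0.88 ± 0.068 (SD, n = 2 arrays) with a 95% interval of -1.15 to -0.61. Only 0.533% of the genes tested had a lower mean. Its limma adjusted p was 0.051, just above the threshold, with an unadjusted p of 0.000393 from the moderated fit across all genes. The second probe read 183.3 and 91.12 units in the female pools and 165.6 and 78.73 in the male pools, control first, and gave log2 ratios of -0.86 and -0.85. When every probe on the array was fitted instead of 1 probe per gene, both Fabp3 probes passed, with adjusted p of 0.041 and 0.0427 in limma. The call also moved with the background treatment and scaling, as the limma adjusted p was 0.0035 without the offset, 0.171 under median centring, where the male ratio was -0.58 and the fold rule was missed, and 0.271 with the scanner-processed signals.

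Fabp5, the epidermal member, is the family's widely expressed form in stratified epithelia, endothelium and macrophages. Its probe read 12906 ± 372 units in the female control pool and 7888 ± 304 in the female Pparg-cKO pool (SD over 4 spots). The male pools read 10950 ± 625 and 6790 ± 221. As for Fabp3, both control pools were above both Pparg-cKO pools. The log2 ratios were -0.76 and -0.62, or 1.7-fold and 1.53-fold, so the male array cleared the 1.5-fold line narrowly. The mean was -0.69 ± 0.104 (SD, n = 2 arrays), with a 95% interval of -0.97 to -0.41 and a limma adjusted p of 0.101. Only 0.916% of the genes tested had a lower mean.

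**Figure D2:**
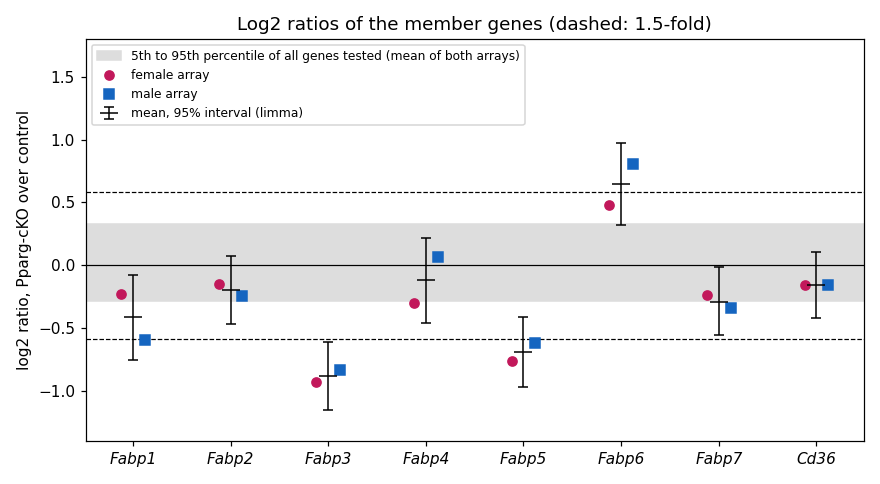
Log2 ratio of Pparg-cKO over control for each member, on the female array (circles) and the male array (squares), with the mean and its 95% interval from limma; the grey band spans the 5th to the 95th percentile of the means of all genes tested (-0.28 to 0.33) and the dashed lines mark 1.5-fold. Fabp3 and Fabp5 lie beyond the lower line on both arrays, and Fabp6 is the member above the band.

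Fabp4 and Cd36 are the members best known as PPARG targets, and neither met a criterion. Fabp4 reads adipocytes, macrophages and capillary endothelium. On the study's sections at E18.5, Fabp4 was detected in adipose tissue around the ureter and not in the ureteric epithelium of either genotype. Its probe gave 18802 ± 401 units in the female control pool and 14976 ± 582 in the female Pparg-cKO pool, and 14519 ± 500 and 15086 ± 513 in the male pools (SD over 4 spots). The female control pool thus stood above the other 3, which were close to each other. The log2 ratios were -0.30 and 0.065, with a mean of -0.12 and a 95% interval of -0.46 to 0.22 that holds 0 (limma adjusted p = 0.908). Cd36 read 1498 ± 61.6 and 1327 ± 43.9 units in the female control and Pparg-cKO pools and 1299 ± 23 and 1127 ± 19.4 in the male pools, so that each Pparg-cKO pool was below the control of its own array but the groups overlapped. The log2 ratios of Cd36 were -0.16 and -0.15 (-0.22 and 0.037 under median centring), with a mean of -0.16 and a 95% interval of -0.42 to 0.11 (limma adjusted p = 0.784).

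Fabp7, the brain and glial member, was slightly lower in the Pparg-cKO on both arrays. It read 1005 and 864.8 units in the female control and Pparg-cKO pools and 935.3 and 697.3 in the male pools. The groups did not overlap, but the log2 ratios of -0.24 and -0.34 lay near the edge of the band that holds most genes, and the limma adjusted p was 0.559.

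Fabp1, Fabp2 and Fabp6 are the liver, intestinal and ileal members, the last of which binds bile acids. All 3 had signals under 100 units, below what the fold rule asks for, although their spots were flagged well above background in each pool. Fabp1 read 21.57 ± 0.602 and 15.75 ± 1.86 units in the female control and Pparg-cKO pools and 40.78 ± 4.39 and 19.73 ± 1.66 in the male pools. The male control pool stood above the other 3, and the log2 ratios were -0.23 and -0.60 (limma adjusted p = 0.466). The mean of Fabp1, -0.41 with the offset, was -0.74 with the scanner's processed signals and -0.76 in the deposited table, beyond that of Fabp5 in both (-0.68 and -0.71). Fabp2 read 25.7 and 20.92 units in the female and 27.42 and 20.35 in the male pools, with log2 ratios of -0.15 and -0.25 (limma adjusted p = 0.717). The SD over the spots of Fabp2 lay between 1.63 and 3.49 units in the pools.

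Fabp6 was the member that was higher in both Pparg-cKO pools. Its probe read 13.15 ± 1.01 units in the female control pool and 24.68 ± 3.47 in the female Pparg-cKO pool, and 13.08 ± 1.52 and 35.95 ± 1.81 in the male pools (SD over 4 spots). The control pools were close to each other and both Pparg-cKO pools were above them. The log2 ratios were 0.48 and 0.81, with a mean of 0.65 ± 0.23 (SD, n = 2 arrays), a 95% interval of 0.32 to 0.97 and a limma adjusted p of 0.18, and 98.8% of the genes tested had a lower mean. At such signals the size depends on the background treatment. The mean log2 ratio was 0.94 without the offset, with a limma adjusted p of 0.00746. It was 1.20 with the scanner's own processed signals, with a limma adjusted p of 0.421.

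**Figure D3:**
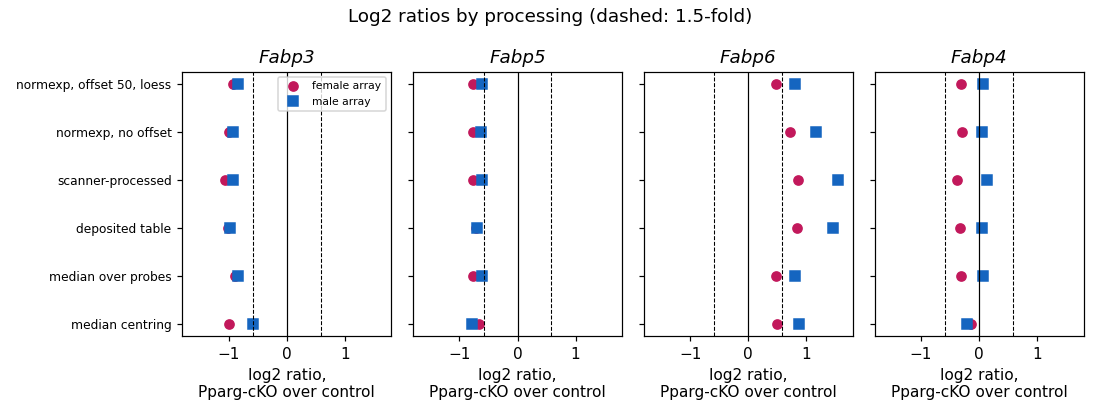
Log2 ratio of Pparg-cKO over control for Fabp3, Fabp5, Fabp6 and Fabp4 on the female array (circles) and the male array (squares) under the processing used and 5 other ways of processing; dashed lines mark 1.5-fold. Fabp5 stays beyond 1.5-fold throughout, Fabp3 comes to the line on the male array under median centring (-0.58), Fabp6 ranges most, and Fabp4 on the male array is below 0 under median centring (-0.20) and above 0 otherwise.

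The other genes of the pathway came from 3 lists with 53 genes on the array, of which 45 were tested. Of the lists' genes, 4, 14 and 13 had the signal that the fold rule asks for. Vldlr and Pdk4 met the rule, both lower, where 1.84% of all genes with that signal did, and none was called in limma. In the first list, the other intracellular lipid-binding proteins of the same protein family, 4 of 8 genes were tested and none met the fold rule. The neighbours of Fabp4 and Fabp5 on the chromosome gave little signal. Fabp9 and Pmp2 were not above background in any pool, and Fabp12 was in at least 1 pool but not on both arrays. The median log2 ratio of the 4 was -0.24, and the lowest was that of the retinol-binding gene Rbp7, at -0.54 and -0.70. Rbp7 missed 1.5-fold on the female array, met the fold rule with the scanner-processed signals, and was named after its values were seen.

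In the second list, of fatty acid uptake and activation, all 20 genes were tested. The median log2 ratio was -0.052, 10 genes were lower and 4 higher on both arrays, and 1 met the fold rule. This was Vldlr, which encodes a receptor that takes up triglyceride-rich lipoproteins. It read 2088 and 1281 units in the female control and Pparg-cKO pools and 2205 and 1302 in the male pools, with log2 ratios of -0.69 and -0.70 (limma adjusted p = 0.087). In the third list, PPAR target genes of lipid storage and use, 21 of 25 genes were tested, the median was -0.031, and 10 genes were lower and 1 higher on both arrays. The gene past the fold rule was Pdk4, which encodes a kinase that restrains the entry of pyruvate into oxidation. It read 351.5 and 227.5 units in the female and 367.8 and 218.1 in the male pools, control first, with log2 ratios of -0.61 and -0.69 (limma adjusted p = 0.11). Vldlr and Pdk4 came under the 1.5-fold line when ratios were centred on each array's median without loess, a setting in which the whole array counted 115 genes higher and 102 lower.

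**Figure D4:**
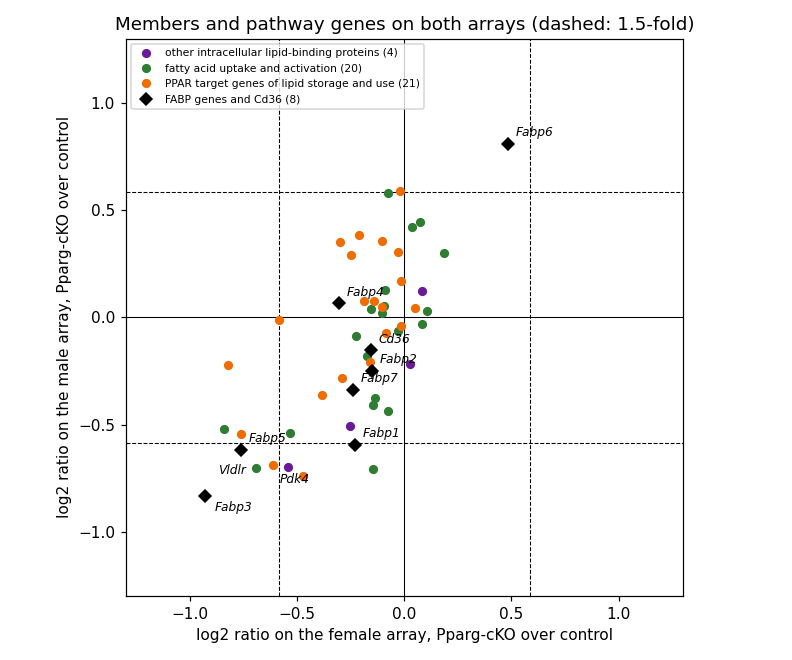
Log2 ratio of Pparg-cKO over control on the female array (x axis) against the male array (y axis) for the 8 members (diamonds) and the 45 tested genes of the 3 pathway lists (circles, coloured by list); dashed lines mark 1.5-fold. Fabp3, Fabp5, Vldlr and Pdk4 lie in the lower left corner, beyond 1.5-fold on both arrays, and Fabp6 lies farthest toward the upper right.

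Among genes with the signal of the fold rule, those whose pair of log2 ratios lay near that of Fabp3 included Osbpl3 (-0.98 and -0.85) and S100a6 (-0.99 and -0.83), at distances of 0.058 and 0.062 on the log2 scale. Those nearest to Fabp5 were Acot1 (-0.75 and -0.60), Nfe2l3 (-0.78 and -0.65) and Cd200r3 (-0.74 and -0.57), at distances of 0.025, 0.034 and 0.053. The likeness is over 2 arrays and is a description only.

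The members are known from many cell types, the pools were of whole ureters, and there fewer cells of a type and less RNA per cell cannot be told apart. All 9 urothelial and all 6 ureteric smooth muscle markers passed the background filter, but so did 22499 of all 29923 genes. The liver list and the skeletal and heart muscle list passed in full as well, so passing does not identify the tissue. The urothelial list, beside which the lower Fabp3 and Fabp5 stand, had a median log2 ratio of -0.48, with Krt20, Upk1a and Upk1b past the fold rule and lower. The list did not move as one, since 6 of 9 were lower and 2 higher on both arrays. These 2 were Epcam (0.41 and 0.47) and Cdh1 (0.068 and 1.10), and Krt5 had ratios of opposite sign (-0.86 and 0.35), all 3 named after their values were seen. The summed signal of the list was 84197 and 74029 units in the control pools and 51433 and 59592 in the Pparg-cKO pools. The brightest gene, Upk3a, had log2 ratios of -0.31 and -0.17. The part of this shift in the values of Fabp3 and Fabp5 was not tested.

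Endothelium, macrophages and adipocytes, in which Fabp4, Fabp5 and Cd36 are known, were read through their own markers. The 8 endothelial markers had a median log2 ratio of 0.055 and summed signals of 9422 and 9617 in the control and 9744 and 10198 in the Pparg-cKO pools, with Kdr the brightest (0.019 and 0.23). The 7 macrophage markers had a median of 0.11 and sums of 7009 and 6559 against 7597 and 6715, with Mrc1 the brightest (0.12 and 0.11). None of either list met a criterion. Of the 7 adipocyte markers, 3 were tested and Lep, Cfd and Cidec were not above background in any pool. Their sum was 123 units in the female control pool and between 39.21 and 41.04 in the other 3. Adipoq made most of it in the female control pool, at 85.95 units, and read 12.26, 13.07 and 8.237 units in the female Pparg-cKO, male control and male Pparg-cKO pools. The female control pool was also the pool in which Fabp4 was highest, and the part of those cells in that value was not tested.

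For Fabp3, the 9 markers of skeletal and heart muscle had median log2 ratios of -0.076 (female array) and -0.39 (male array). Their sums were 7907 and 9097 units in the control pools and 7375 and 6386 in the Pparg-cKO pools, with Acta1 the brightest (-0.042 and -0.39). Of the 9, 6 were lower and 2 higher on both arrays, 0 met a criterion, and their means ranged from -0.72 (Ckm, which the study also uses as a marker of ureteric smooth muscle) to 0.23. The 6 ureteric smooth muscle markers had median log2 ratios of -0.24 (female array) and 0.011 (male array), with Acta2 the brightest (0.11 and -0.52). The part of muscle RNA in the Fabp3 values of either array was not tested. For Fabp7, the 7 markers of peripheral glia had a median of 0.09.

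The liver list was lower beside Fabp1 on the male array. Its median log2 ratios were -0.049 (female array) and -0.77 (male array), and its sum was highest in the male control pool, at 7382 units, against 4525 in the female control, 3495 in the female Pparg-cKO and 3916 in the male Pparg-cKO pool. Of its 7 genes Trf, the brightest and a gene also made outside the liver, met the fold rule (-0.87 and -0.77). On the female array most of the difference in the sum was Trf, at 2316 and 1352 units in the control and the Pparg-cKO pool. Fabp1 was likewise highest in the male control pool, and the part of liver-type RNA in it was not tested. Of 6 kidney tubule markers, Umod and Slc12a1 were not above background in any pool, the 4 tested had a median of -0.30, and 3 of them were lower on both arrays. The sums were 1793, 1745, 1866 and 1952 units in the female control, female Pparg-cKO, male control and male Pparg-cKO pools, of which Aqp1, the brightest, made 1595, 1578, 1639 and 1830.

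PPARs bind DNA with RXR at a direct repeat of the half-site AGGTCA with 1 base between the copies, AGGTCANAGGTCA, and the promoters of the members were searched for it. RefSeq promoters (GRCm38.p6, 250 bases before to 50 bases after each start) were given for 6 of the 8 members, Fabp1, Fabp2, Fabp3, Fabp6, Fabp7 and Cd36. Both strands were read and the 12 fixed letters were scored. Fabp1 held the closest match, with 11 of 12 letters, in a window at chr6:71199629-71199928, and 0.554% of 32851 promoters held one at least as close. Cd36 followed with 10 of 12 letters, at chr5:17835847-17836146, a level reached by 3.86% of promoters. The best matches of Fabp2 and Fabp7 had 9 letters (24.6% of promoters) and those of Fabp3 and Fabp6 had 8 (79.8%). The exact repeat was in 0.0396% of all promoters and the single half-site in 16.3%. The 2 closest matches and that of Fabp3 are shown with 30 bases each, on the strand of the match, the aligned 13 bases in capitals.
Fabp1: tcagatatAGGCCATAGGTCAgtgattgtc
Cd36: atccaagtAAGTCAGAGGCCAgagaaccaa
Fabp3: ccagggatGGGTTAGATGGCAccaacagga
The members with the closest matches, Fabp1 and Cd36, had log2 ratios of -0.23 and -0.60 and of -0.16 and -0.15, and Fabp3, past the fold rule, had no match closer than most promoters. These windows are short, a match of letters is a description, and no binding was measured here.

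The targeted gene itself, Pparg, read 6113 and 6688 units in the control pools and 12357 and 12930 in the Pparg-cKO pools, 1.96-fold higher (limma adjusted p = 0.0373). Where its probe lies relative to the floxed exons was not determined here, so this signal does not check the deletion. With a probe outside the floxed exons, the study reports more of a Pparg transcript lacking them in the mutant than in the control at E18.5. The median spot signal was between 293 and 334 units over both channels of both arrays, 2.87% and 3.24% of spots were left out as outliers, and 0 spots were saturated. The number of arrays limits the precision of every value above.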

How the data were processed

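Total RNA of pooled ureters was amplified, labelled with 2 dyes and hybridised to 2 oligonucleotide arrays. Per the file headers, the scanner files, made with Agilent Feature Extraction 10.7.3.1, held spot intensity on a linear scale and the log10 ratio of red over green. The authors' value table gave each probe a signed fold change on each array and served for the direction and as an alternative. In limma 3.58.1 under R 4.3.3, mean signals and median backgrounds were corrected by normexp (offset 50) and each array's ratios were loess-normalised, with control spots given no weight. Spots flagged as outliers were left out, spots of a probe were averaged, and a gene was read through its brightest probe. Tested genes were well above background in at least 0.5 of the kept spots of at least 1 channel on both arrays. The mean of both ratios was tested with lmFit and eBayes, two-sided, and p-values of 22499 genes were Benjamini-Hochberg adjusted. Each gene had 1 residual degree of freedom, to which the moderation contributed 4.00 prior ones. Levels are scanner-processed signals, averaged over spots. Spots are technical, and nothing says how many litters a pool held. The script was tested on simulated data.

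The 8 members and the gene lists were chosen with earlier results of these data known. Named beside the members were pathway genes past a criterion, the brightest gene of a quoted marker list and the 3 nearest genes (Euclidean distance over both arrays) to each member past the fold rule. Of the genes this rule named, 1 is not reported here. The alternatives were other background corrections and scalings, probe summaries, filters and thresholds, and each array alone.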

Additional observations from a re-analysis of the deposited data

Results flagged for a closer look

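Fabp4 had log2 ratios of opposite sign on the arrays, -0.30 on the female and 0.065 on the male one, a difference of 0.368. With 1 array per sex this difference was not tested, dye orientation cannot be told apart from sex, and the male ratio was -0.20 under median centring.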

How the results depend on the processing

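The members kept the sign of their mean log2 ratio under the alternatives run, except Fabp4, which was 0.065 without replicate 1 against a mean of -0.12. On the male array alone, median centring turned Cd36 (to 0.037) and Fabp4 (to -0.20). Fabp3 and Fabp5 were the members past the fold rule under each except a threshold of 2-fold (0 members) and median centring in place of loess (1 member, Fabp5; Fabp3 was then -1.0 and -0.58). Over 7 alternatives the mean log2 ratio ranged from -1.0 to -0.79 for Fabp3, from -0.72 to -0.68 for Fabp5 and from 0.65 to 1.20 for Fabp6 (-0.76 to -0.37 for Fabp1 and -0.37 to -0.18 for Fabp2), and the limma adjusted p of Fabp3, Fabp5 and Fabp6 from 0.0035 to 0.533, 0.0274 to 0.533 and 0.00746 to 0.533. Against 0 of 8 members called in limma, 3 were called without the offset (Fabp3, Fabp5, Fabp6), 2 probes, both of Fabp3, in the fit over all probes, 1 with the median over probes (Fabp3, adjusted p = 0.043), and 1 where more than 0.5 of the spots had to be well above background (Fabp3, adjusted p = 0.049), an alternative chosen after seeing the data. In the last 3 of these settings limma called 253 probes, 171 genes and 176 genes of the whole array. Of all genes it called 94 with no filter on dim probes, 571 without the offset, and 0 with the scanner-processed signals and with the deposited table, against 169. The fold rule gave 112 genes at 2-fold and 115 higher and 102 lower under median centring, against 111 and 147. Pathway genes past it numbered 0 at 2-fold, 0 under median centring and 3 with the scanner-processed signals (Pdk4, Rbp7, Vldlr), against 2. By a single array it gave 1253 genes without replicate 1 (965 higher, 288 lower) and 444 without replicate 2 (176 higher, 268 lower), 2 members either way, and 3 and 4 pathway genes. A single array leaves no residual spread to test, and an exact sign-flip test of 2 arrays cannot give a p under 0.5. The limma test is itself a paired analysis, because each ratio already pairs the pools of 1 array. Fabp1, Fabp2 and Fabp6 lie at signals where the background treatment sets the size.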
